A study of Mus musculus with 12 samples.

Results

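The mouse germline carries its own versions of several glycolytic enzymes, and 5 of them were set beside their somatic counterparts here: Aldoart1 and Aldoa (aldolase), Gapdhs and Gapdh (glyceraldehyde-3-phosphate dehydrogenase), Pgk2 and Pgk1 (phosphoglycerate kinase), Eno4 and Eno1 (enolase), and Ldhc and Ldha (lactate dehydrogenase). These 10 genes were picked by symbol, as known isozyme pairs, from the 28643 symbols kept of the deposited expression table, and every one of them had a value in all 12 libraries. The libraries came from round spermatids of 8-week-old male mice, sorted by flow cytometry with cycloheximide, a drug that halts ribosomes on their mRNAs, present throughout. The control group was Igf2bp3+/- and the knockout group Igf2bp3-/-, in which Cas9 had introduced a frameshift at the first KH (RNA-binding) domain of IGF2BP3, an mRNA-binding protein; both groups therefore carried at least 1 mutant allele, and no library came from a wild-type animal. The study selected knockout males with impaired fertility for the experiments that include these libraries. The knockout group was therefore chosen by phenotype as well as by genotype. For each genotype, 3 libraries were made from total input RNA (RNA-seq) and 3 from mRNAs that sedimented with 4 or more ribosomes in a sucrose gradient (ribosome nascent-chain complex sequencing, RNC-seq). The study describes its replicates as biological and the cells as isolated mouse by mouse, with input and polysome RNA taken from a shared extract, but the labels neither tie a library to an animal nor say that replicate numbers match between the assays. The p-values therefore measure the spread between these samples.

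Glycolysis turns glucose into pyruvate, and lactate dehydrogenase then interconverts pyruvate and lactate. In sperm much of the pathway is anchored along the fibrous sheath of the tail, where it supplies ATP for motility, and several of its enzymes are encoded by germline-specific genes that are switched on in meiotic or post-meiotic cells. Some, such as Pgk2 and the aldolase genes Aldoart1 and Aldoart2, are intronless retrogenes. Pgk1 lies on the X chromosome, which is silenced during male meiosis and stays largely repressed in round spermatids.

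The members differ in how closely they resemble their counterparts, which matters because short reads can be assigned to the wrong copy. On GRCm38, Pgk2 (chr17:40207015-40208640, minus strand) is a single exon, and its coding sequence is identical to that of Pgk1 (chrX:106187100-106203699, plus strand) at 992 of 1251 bases (79.3%). Ldhc (chr7:46861203-46878142) and Ldha (chr7:46841475-46855627) lie beside each other on the plus strand and share 733 of 995 aligned coding bases (73.7%). Aldoart1 (chr4:72850583-72852634, minus strand) is a single exon and matches Aldoa (chr7:126795234-126800751, minus strand) at 1029 of 1092 coding bases (94.2%), the closest of the 5 pairs. Gapdhs (chr7:30729775-30743681, minus strand) encodes a longer protein than Gapdh (chr6:125161715-125166467, minus strand), with 1314 against 999 coding bases, and the aligned part is 72.3% identical. Eno4 (chr19:58943425-58971421, plus strand) and Eno1 (chr4:150236721-150248879, plus strand) are the most distant pair, at 62.8%. The first 30 coding bases show what sets the closest pairs apart. They are given 5′ to 3′ from GENCODE M21 transcripts, and capitals mark the bases that differ within a pair.
Pgk2, chr17:40208506-40208535, minus strand: atgGcTctttcTGCTaagTtgactCtggac
Pgk1, chrX:106187251-106187280, plus strand: atgTcGctttcCAACaagCtgactTtggac
Ldhc, chr7:46861770-46861799, plus strand: atgTcCaccGtcaaggaGcagctgattCAg
Ldha, chr7:46847620-46847649, plus strand: atgGcAaccCtcaaggaCcagctgattGTg
Aldoart1, chr4:72852375-72852404, minus strand: atgcccTGcccatacccagcactgaccAcA
Aldoa, chr7:126797726-126797755, minus strand: atgcccCAcccatacccagcactgaccCcG
The Pgk pair differed at 8 of these 30 bases, the Ldh pair at 6 and the aldolase pair at 4. How reads that fit more than 1 gene were treated is not given in the sources used here.

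None of the 5 germline genes, nor Aldoa, had a near-identical copy under another symbol (at least 95% identity over at least 50% of a transcript), while 4 somatic genes did. Aldoa has 2 gene models that share its symbol, which this search could not compare. The Aldoa position and coding sequence above are those of the lower-numbered model, and its FPKM was deposited by symbol. Gapdh had 70 such copies, of which 28 were in the table with a summed mean of 6.46 FPKM (read density scaled to transcript length and to the library's mapped reads), against 0.513 FPKM for Gapdh itself, so reads of Gapdh may have been counted under its pseudogenes and its level is uncertain. Gm14130, at 1.89 FPKM, was the only one of these copies above 1 FPKM. Eno1 had 3 copies, Eno1b at 15.1 FPKM, Gm4735 at 11.7 and Gm5855 at 0.316, which summed to 27.1 FPKM against 210.9 for Eno1. The copies of Ldha and Pgk1 that were in the table summed to 0.118 and 0.0371 FPKM. Gapdhs shares 10.1% of its exonic bases with the antisense gene Tmem147os and Eno4 shares 6.46% with Hspa12a, and since strand use in quantification is not stated, reads in these stretches cannot be told apart.

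The libraries of the 2 assays differed in scale. The summed FPKM of a library was 459762 to 509397 in RNA-seq and 555464 to 624792 in RNC-seq, and the 10 genes with the highest means, which include Ldhc, took 11.3% to 18.9% and 13.8% to 27.7% of it. The read depth is unknown, because only FPKM was deposited. Igf2bp3 itself was listed at 33.4 to 38.6 FPKM in Igf2bp3+/- RNA-seq and 31.4 to 32.5 in Igf2bp3-/- RNA-seq (log2 difference -0.20 ± 0.09 SE, limma adjusted p = 0.335), but a frameshift need not lower the mRNA, so this level does not check the genotype. The 6 round spermatid markers (Spaca1, Acr and Acrv1 among them) summed to between 766 and 1394 FPKM in each library.

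The germline isozyme far exceeded its somatic counterpart in 3 pairs and was the lower one in the others. This compares pairs and not whole steps, since Aldoart2, a further aldolase retrogene described below, belongs to no pair. Pgk2 FPKM was 125 to 201 times that of Pgk1 (median 143 over 12 libraries), Gapdhs was 27.7 to 232 times Gapdh (median 55.1), and Ldhc was 4.60 to 7.89 times Ldha (median 5.86). These germline genes were higher than their counterparts in 12 of 12 libraries. Aldoart1, in contrast, stood at 0.141 to 0.485 of Aldoa (median 0.292) and Eno4 at 0.108 to 0.175 of Eno1 (median 0.143), lower in 12 of 12 libraries. In the plot of germline-over-somatic ratios, all libraries of a pair fell on the same side of equality, whatever the genotype or assay. Counting the 28 listed copies as Gapdh would leave Gapdhs the higher gene, since their sum never passed 7.79 FPKM in any library. It would much lower the ratio, because the copies summed to a mean of 6.46 FPKM against 0.513 for Gapdh.

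**Figure D1:**
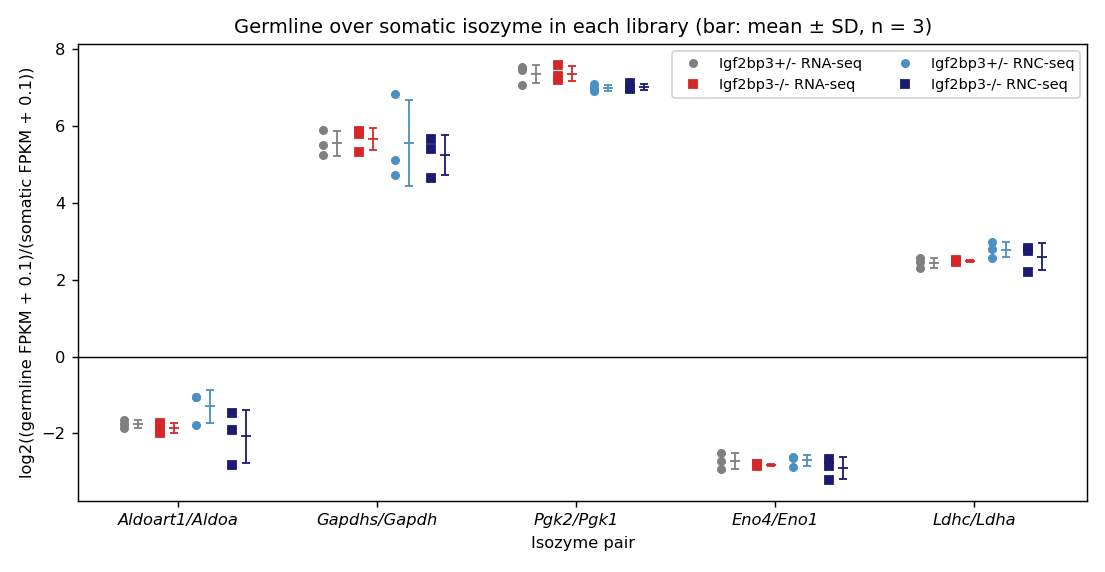
Each point is 1 library; the vertical axis gives log2 of germline over somatic FPKM, each with 0.1 added, for the 5 pairs, and the bar beside the points is the mean ± SD of 3 libraries. Pgk2/Pgk1, Gapdhs/Gapdh and Ldhc/Ldha lay above 0 in 12 of 12 libraries, and Aldoart1/Aldoa and Eno4/Eno1 lay below 0 in 12 of 12.

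By level, which FPKM makes comparable between genes of different length, the order was the same in all 4 groups: Ldhc, Ldha, Pgk2, Eno1, Aldoa, Aldoart1, Eno4, Gapdhs, Pgk1 and Gapdh. Ldhc was the 4th highest of all 28643 symbols by mean FPKM, Ldha the 68th and Pgk2 the 179th. Gapdhs ranked 3107, Pgk1 9502 and Gapdh 14376. Eno4 and Gapdhs overlapped in every group, so their places could not be told apart. In Igf2bp3-/- RNC-seq, where libraries were more spread, Eno1 and Aldoa, and Aldoart1 and Eno4, overlapped as well. All other neighbours were separated in every group.

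**Figure D2:**
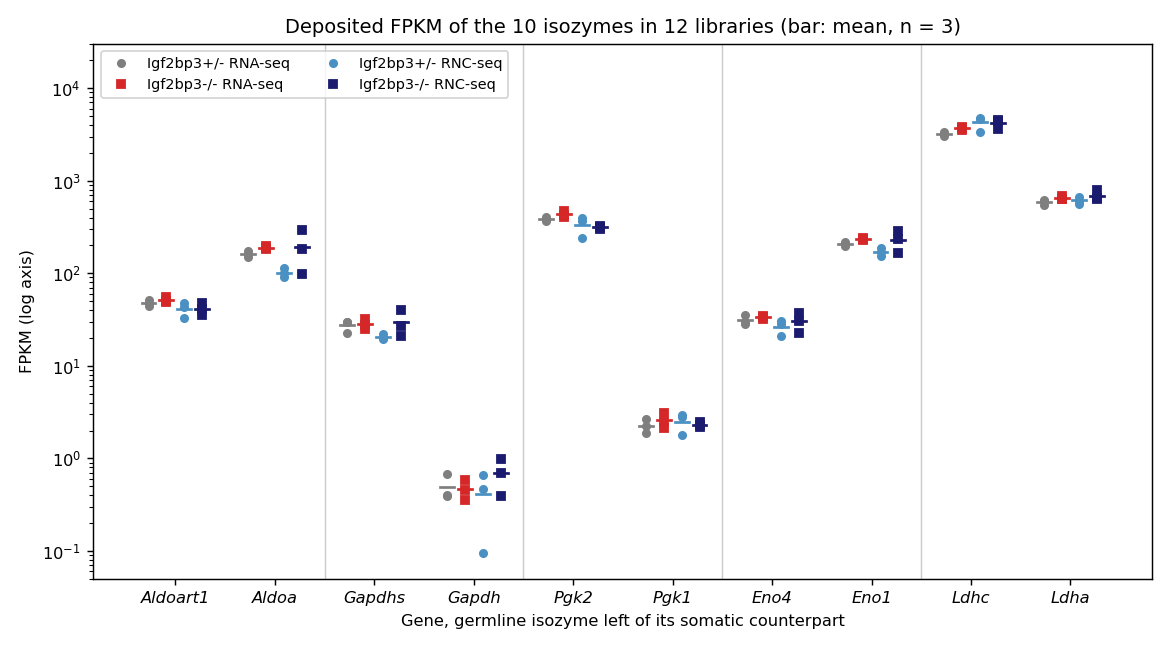
Deposited FPKM on a log axis for the 10 genes, each germline gene to the left of its counterpart; points are libraries and short lines the means of 3. The levels run from 0.0961 FPKM for Gapdh in an Igf2bp3+/- RNC-seq library to 4804 FPKM for Ldhc.

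At the aldolase step, which splits fructose-1,6-bisphosphate, Aldoart1 was 44.7, 47.7 and 51.3 FPKM in Igf2bp3+/- RNA-seq and 49.9, 49.2 and 56.0 in Igf2bp3-/- RNA-seq. On polysomes it was 43.7, 32.6 and 48.1 in Igf2bp3+/- and 48.1, 41.0 and 35.7 in Igf2bp3-/-. The genotypes overlapped in both assays. Aldoa was 151, 175 and 162 FPKM in Igf2bp3+/- RNA-seq and 182, 196 and 187 in Igf2bp3-/- RNA-seq, with no overlap. Its RNC-seq values were 90.2, 113 and 99.9 against 181, 292 and 99.0, so that 1 knockout library lay among the controls. A further retrogene, Aldoart2 (chr12:55565239-55566896, plus strand), was the most abundant aldolase. It held 57.1% to 71.6% of the summed aldolase FPKM (median 63.8%), against 20.8% to 33.0% for Aldoa and 4.46% to 10.9% for Aldoart1, so that the 2 retrogenes together exceeded Aldoa although Aldoart1 alone did not. Aldoart2 matches Aldoa at 91.7% and Aldoart1 at 89.1% of coding bases, and starts as follows, with the bases that differ from Aldoa in capitals.
Aldoart2, chr12:55565292-55565321, plus strand: atgTcTTacccCtacccagcactgaccccg

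At the next member step, which oxidises glyceraldehyde-3-phosphate, Gapdhs was 30.03, 29.6 and 22.5 FPKM in Igf2bp3+/- RNA-seq and 27.3, 25.2 and 32.4 in Igf2bp3-/- RNA-seq. The RNC-seq values were 20.2, 19.6 and 22.3 against 40.4, 27.0 and 21.1. Both comparisons overlapped. Gapdh was 0.403, 0.677 and 0.393 FPKM in control RNA-seq, 0.580, 0.353 and 0.457 in knockout RNA-seq, 0.666, 0.467 and 0.0961 in control RNC-seq and 0.697, 0.974 and 0.397 in knockout RNC-seq. Every one of these values was under 1 FPKM, in a gene widely used as a housekeeping reference. Gapdhs made up 96.5% to 99.6% of the step, whose median sum of 26.7 FPKM was the lowest of the 9 enzyme steps summed. That sum leaves out the 28 listed copies of Gapdh, at 5.08 to 7.79 FPKM together. If their reads came from Gapdh, the share of Gapdhs would be lower.

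Phosphoglycerate kinase, the first ATP-yielding enzyme of the pathway, was almost entirely Pgk2. Pgk2 was 367, 408 and 372 FPKM in Igf2bp3+/- RNA-seq and 409, 428 and 474 in Igf2bp3-/- RNA-seq, which did not overlap. The polysome values were 364, 242 and 393 against 328, 299 and 315, with the knockouts inside the range of the controls. The X-linked Pgk1 was between 1.80 and 3.10 FPKM in every library. Its share of the step was 0.495% to 0.792%. The same split was seen downstream for the E1 alpha subunit of pyruvate dehydrogenase, where the autosomal Pdha2 held at least 99.8% and the X-linked Pdha1 at most 0.238%.

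Enolase, which forms phosphoenolpyruvate, was mostly the somatic form. Eno4, a divergent enolase needed for sperm motility, was 29.9, 28.5 and 35.7 FPKM in Igf2bp3+/- RNA-seq, 31.9, 34.9 and 33.8 in Igf2bp3-/- RNA-seq, 20.8, 30.4 and 28.2 in control RNC-seq and 37.6, 30.8 and 22.8 in knockout RNC-seq. The genotypes overlapped in both assays. Eno1 was 199, 218 and 205 FPKM in control RNA-seq and 230, 243 and 236 in knockout RNA-seq, without overlap, and 153, 188 and 171 against 237, 286 and 165 in RNC-seq, with overlap. Eno1 took 78.1% to 83.4% of the enolase sum and Eno4 8.97% to 13.7%. Eno1b, whose transcript is 99.5% identical to that of Eno1 over the matched part, took 4.16% to 7.99% and the muscle form Eno3 1.77% to 3.45%.

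Lactate dehydrogenase had the highest summed FPKM of the 9 steps, with a median of 5008. Ldhc was 3215, 3346 and 3057 FPKM in Igf2bp3+/- RNA-seq and 3569, 3785 and 3696 in Igf2bp3-/- RNA-seq, which did not overlap. On polysomes it stood at 4804, 3389 and 4638 against 4501, 3606 and 4406, which did. Ldha was 541, 610 and 615 FPKM in control RNA-seq and 641, 676 and 641 in knockout RNA-seq, without overlap, and 609, 567 and 661 against 631, 784 and 649 in RNC-seq, with overlap. Ldhc took 69.8% to 78.6% of the step. Ldhal6b, another gene of the family expressed in testis, took 8.25% to 15.1%, a range that overlaps that of Ldha (9.77% to 15.2%), and the heart form Ldhb at most 0.0343%.

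**Figure D3:**
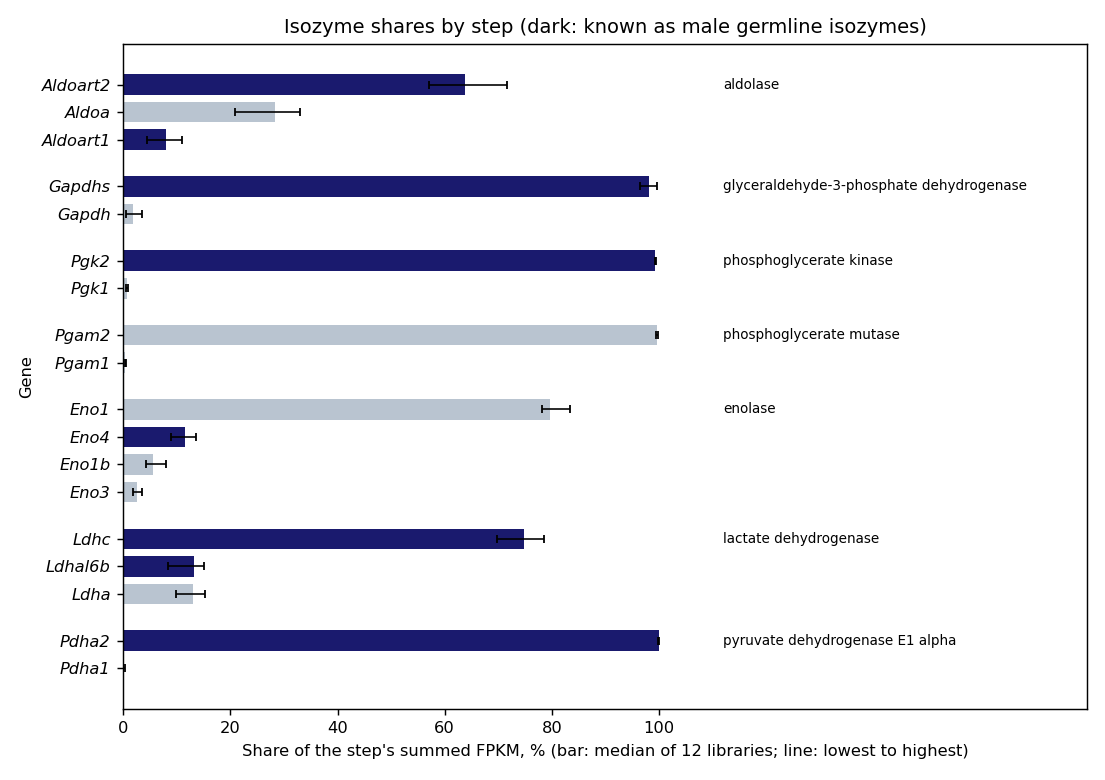
Share of each isozyme in the summed FPKM of its step, in percent; bars are medians over 12 libraries and lines run from the lowest to the highest library, and isozymes that stayed under 0.2% in every library are not drawn. Germline forms (dark) lead at 5 of the 7 steps drawn, while Eno1 leads at the enolase step with a median of 79.7% and Pgam2 at the mutase step with 99.6%. Hexokinase and phosphofructokinase, also summed, are not drawn, and no gene marked as germline was counted in them. Their leading medians were 98.8% for Hk1, and 50.3% for Pfkm and 49.6% for Pfkp. Near-identical copies of Gapdh are not counted in its step.

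Whether loss of IGF2BP3 changed these genes was asked first in total RNA. No member passed the test in RNA-seq (limma on log2(FPKM + 0.1), adjusted p under 0.05), where 0.256% of 20352 genes did. These were 52 genes, a number that fell to between 9 and 38 on leaving out any one replicate. At an unadjusted p under 0.05, 3 members (Ldhc, Aldoa and Eno1) were higher in the knockout and none lower. The log2 differences ran from -0.06 ± 0.28 SE for Gapdh to 0.21 ± 0.09 for Aldoa (adjusted p = 0.294), and Ldhc stood at 0.20 ± 0.09 (adjusted p = 0.318), Pgk2 at 0.19 ± 0.09 (adjusted p = 0.346), Eno1 at 0.19 ± 0.08 (adjusted p = 0.294) and Ldha at 0.15 ± 0.09 (adjusted p = 0.427). In each of these 5 genes every knockout library was above every control library, while 14.1% of all genes tested were separated in that direction and 8.68% in the other. The median over the members was 0.17, against 0.05 over all genes. Under quantile normalization, Eno1 was at -0.002 and Ldha at -0.009, so the sign of their differences depends on how libraries are scaled. Aldoa, Ldhc and Pgk2 kept their sign under every alternative.

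The same libraries differed in markers of other testis cells. The 7 Leydig cell markers summed to 15.2 to 22.5 FPKM in control RNA-seq and 48.4 to 54.8 in knockout RNA-seq, with 4 of 6 tested called higher, and of these markers Hsd17b3 was at 0 in 7 of the 12 libraries. Insl3, with means of 14.9 and 39.3 FPKM, made up most of that sum, and all 6 tested had a log2 difference above 0. The 7 Sertoli cell markers summed to 4.60 to 5.68 and 9.12 to 9.48 FPKM (1 of 5 called higher). Gata4 was at 0 in 4 libraries and Rhox5 in 5. Clu, the Sertoli marker called, made up most of the sum, with means of 3.125 and 6.695 FPKM. Sox9, Wt1, Gata4, Cldn11 and Rhox5 stayed under 1 FPKM in every library, and Rhox5 was lower in the knockout (log2 -0.815 ± 0.614 SE). The 8 macrophage and blood markers summed to 7.27 to 7.68 and 14.8 to 16.2 FPKM (2 of 8 called higher, Cd74 and Hbb-bs). The haemoglobin genes Hbb-bs (means of 2.69 and 6.38 FPKM) and Hba-a1 (2.39 and 4.21 FPKM) made up most of that sum. Adgre1, Csf1r and Ptprc stayed under 1 FPKM in every library, and none of them was called. With the replicate number as a block, none of the 7 marker genes called here was called by limma. Nothing in the labels pairs animals of the 2 genotypes by number. Deviations of same-numbered RNA-seq libraries correlated at 0.048, -0.015 and -0.08 between genotypes. The loss of these calls therefore does not show that the markers were equal. The sums of the 5 peritubular markers overlapped, at 1.55 to 1.73 and 1.05 to 1.595 FPKM, as did those of the 6 spermatocyte markers (317 to 334 and 313 to 372 FPKM) and the 8 elongating spermatid markers (9900 to 12620 and 10980 to 11090 FPKM). The 6 spermatogonia markers overlapped too (7.37 to 10.35 and 7.52 to 9.60 FPKM). Of 5 tested, none was called, with 2 differences above 0 and 3 below. Stra8, under 1 FPKM in every library, was at log2 -1.27 ± 0.33 SE (limma adjusted p = 0.172). Tnp1, Tnp2, Prm1 and Prm2, on the elongating spermatid list, were measured by the study as mRNA in round spermatids. The sum of that list is therefore no measure of elongating cells. The 6 round spermatid markers summed to 766 to 877 and 984 to 1136 FPKM. Aldoa, Eno1 and Ldha are also expressed in somatic cells, and the part of such cells in their values was not tested. In bulk RNA of a sorted population, fewer cells of a type and less RNA per cell cannot be told apart.

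On polysomes the genotypes differed no more clearly. No member passed the test in RNC-seq, where limma called 0.115% of 19051 genes (0.0787% higher and 0.0367% lower), and 1 member, Aldoa, had an unadjusted p under 0.05. The 22 genes called here fell to 0 without Igf2bp3-/- replicate 1 and numbered at most 20 without any other replicate. The log2 difference of Aldoa was 0.79 ± 0.32 SE (limma adjusted p = 0.756), with control libraries at 90.2 to 113 FPKM and knockout libraries from 99.0 to 292. Gapdh was at 0.77 ± 0.51 (adjusted p = 0.830), Gapdhs at 0.46 ± 0.25 (adjusted p = 0.805) and Eno1 at 0.39 ± 0.23 (adjusted p = 0.808), whereas Ldhc (-0.03 ± 0.22), Pgk2 (-0.06 ± 0.22) and Aldoart1 (0.01 ± 0.22) lay near 0. No member had fully separated libraries, against 11.3% of all genes (9.44% higher and 1.85% lower). The median over all genes was 0.13 and fell to 0.01 after centring the libraries on their medians, a shift as large as several of these differences. Leydig markers summed to 6.77 to 14.3 FPKM in control RNC-seq and 51.4 to 102 in knockout RNC-seq, and macrophage and blood markers to 12.0 to 14.7 and 17.4 to 35.3. By group means, Insl3 (7.83 and 64.1 FPKM) made up most of the Leydig sum. Hbb-bs (8.51 and 16.5 FPKM) made up most of the macrophage and blood sum. The Leydig marker Insl3 was called higher (log2 3.08 ± 0.37 SE, limma adjusted p = 0.0104), also with the replicate number as a block. The sums of the Sertoli markers (1.78 to 2.05 and 4.14 to 5.595 FPKM) and of the peritubular markers (0.783 to 1.18 and 1.32 to 2.09 FPKM) were also higher in every knockout RNC-seq library than in any control. None of the 4 Sertoli, 3 peritubular or 6 macrophage and blood markers tested was called by limma. The peritubular genes Myh11, Des, Tagln and Cnn1 stayed under 1 FPKM in every library. Myh11 (means of 0.0615 and 0.0461 FPKM) and Des (0.0221 and 0.0203 FPKM) were not higher in the knockout. Clu again made up most of the Sertoli sum, with means of 1.24 and 3.23 FPKM. The part of these cell types in the RNC-seq values was not tested.

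**Figure D4:**
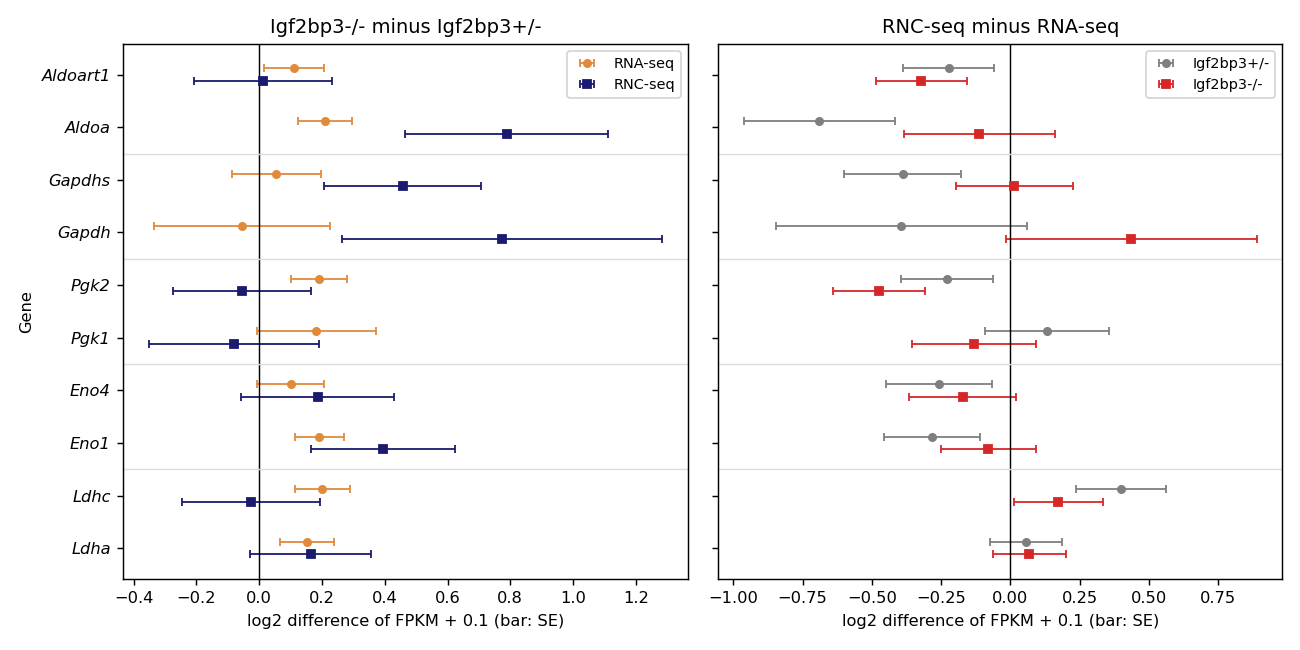
Log2 differences of FPKM + 0.1 with their SE from limma for the 10 genes, Igf2bp3-/- minus Igf2bp3+/- on the left and RNC-seq minus RNA-seq on the right. Only Pgk2 in Igf2bp3-/- on the right, at -0.47, passed an adjusted p of 0.05, and on the left the SEs of all 10 genes are wider in RNC-seq than in RNA-seq.

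The pair ratios, in which a factor common to a library cancels except through the 0.1 added to each FPKM, did not differ between genotypes beyond their spread. In RNA-seq the log2 ratio changed by -0.10 for Aldoart1/Aldoa, 0.11 for Gapdhs/Gapdh, 0.01 for Pgk2/Pgk1, -0.09 for Eno4/Eno1 and 0.05 for Ldhc/Ldha, with exact permutation p between 0.5 and 1 (two-sided, 3 against 3, for which the smallest possible p is 0.1). In RNC-seq the largest change was -0.78 for Aldoart1/Aldoa, from a mean of -1.30 ± 0.43 (SD, n = 3) to -2.07 ± 0.69 (SD, n = 3), with an exact permutation p of 0.2. The other 4 pairs had an exact permutation p between 0.3 and 0.8 in RNC-seq, with changes from -0.32 for Gapdhs/Gapdh to 0.03 for Pgk2/Pgk1. Within RNA-seq the knockout libraries held their ratios closely for 2 pairs: Eno4/Eno1 was 0.139 to 0.144 and Ldhc/Ldha 5.57 to 5.77, against 0.131 to 0.175 and 4.97 to 5.95 in the controls.

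The next question was how far each isozyme was recovered on polysomes relative to total RNA, which the study expresses as translation efficiency (TE), the ratio of RNC-seq to RNA-seq FPKM. Over group means, TE in Igf2bp3+/- was highest for Ldhc (1.33), followed by Pgk1 (1.11) and Ldha (1.04), and lowest for Aldoa (0.621) and Gapdhs (0.757). In Igf2bp3-/- it ran from 0.719 for Pgk2 to 1.49 for Gapdh. No member passed the limma test in Igf2bp3+/-, although 43.8% of 18414 genes did (18.6% higher and 25.2% lower on polysomes). At an unadjusted p under 0.05, Ldhc was higher (log2 0.40 ± 0.16 SE, adjusted p = 0.0578) and Aldoa lower (-0.69 ± 0.27, adjusted p = 0.0546). With the replicate number as a block Aldoa was called (adjusted p = 0.0266). Quantile normalization turned the direction of Ldhc, to -0.20. Every RNC-seq library was above every RNA-seq library for Ldhc and below them for Gapdhs, Aldoa and Eno1, so that 4 members were separated, against 55.6% of all genes (22.7% higher and 32.9% lower). This count turned on the scaling. Setting aside the 10 highest genes moved the median of all genes from -0.10 to -0.27 and made 5 members called (Aldoart1, Gapdhs, Pgk2, Aldoa and Eno1, all lower), whereas centring on the median moved it to 0.07 and made Ldhc the only called member, at 0.57.

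In Igf2bp3-/- a single member, Pgk2, was lower on polysomes than in total RNA, at 299 to 328 against 409 to 474 FPKM (log2 -0.47 ± 0.17 SE, limma adjusted p = 0.0491), where 26.5% of all genes were called and 14% in that direction. The 4886 genes called fell to between 2189 and 4772 on leaving out any one replicate. Pgk2 in Igf2bp3+/- changed by -0.23 ± 0.17 (adjusted p = 0.288), and the difference between genotypes was -0.25 ± 0.24 (adjusted p = 0.807). The call was lost on leaving out any one of the replicates other than Igf2bp3+/- replicate 2, with limma adjusted p from 0.0552 to 0.216. It was also lost with library weights (adjusted p = 0.0523), without the filter on low FPKM (adjusted p = 0.0736) and with a replicate block (adjusted p = 0.0847). Aldoart1 was also separated, at 35.7 to 48.1 FPKM on polysomes and 49.2 to 56.0 in total RNA, but its difference of -0.32 ± 0.16 did not pass (adjusted p = 0.166); these were the 2 separated members, against 40.7% of all genes (19.2% higher and 21.5% lower).

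Of the 5 pair ratios, Pgk2/Pgk1 alone differed between the assays. It was 140.5 to 196 in control RNA-seq and 153 to 201 in knockout RNA-seq, against 125 to 141 and 130 to 146 in RNC-seq, a fall to 0.785 of the RNA-seq ratio (log2 -0.35, exact permutation p = 0.01, two-sided, with assay labels permuted within each genotype, for which the smallest p is 0.005). It rests on the low values of Pgk1, 1.88 to 3.10 FPKM in RNA-seq and 1.80 to 2.91 in RNC-seq, and the p was not adjusted for the 5 pairs. When the 6 differences of same-numbered libraries were tested by sign changes (a replicate block), the exact p was 0.0625. Ldhc/Ldha was higher in RNC-seq by 0.22 (exact permutation p = 0.1), and by 0.33 without Igf2bp3-/- replicate 2 (exact permutation p = 0.0167). That is the largest of the leave-one-out values, which ran from 0.169 to 0.325. Its p was not adjusted, and with fewer libraries the smallest possible p is above 0.005. Aldoart1/Aldoa at 0.13, Gapdhs/Gapdh at -0.21 and Eno4/Eno1 at -0.03 had an exact permutation p between 0.59 and 0.79.

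TE did not differ between genotypes for any member by the interaction test. None was called by limma, none had an unadjusted p under 0.05, and 0.00543% of 18414 genes were called. The widest differences were 0.83 ± 0.64 SE for Gapdh (adjusted p = 0.766) and 0.58 ± 0.39 for Aldoa (adjusted p = 0.748), with TE ratios of knockout over control of 1.78 and 1.64. For the pair ratios, the assay difference changed between genotypes by -0.68 for Aldoart1/Aldoa (exact permutation p = 0.2) and by -0.43 to 0.02 for the others (exact permutation p between 0.4 and 1).

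Other enzymes of the pathway were compared as lists. Of 23 further glycolytic genes, 21 were in the table, and 16 could be tested between assays. In Igf2bp3+/-, 7 of the 16 were lower on polysomes and 2 higher, beside 25.2% and 18.6% of all genes tested. The lower genes covered early and late steps: Hk1 (hexokinase, log2 -0.81), Gpi1 (glucose-6-phosphate isomerase, -0.47), the phosphofructokinases Pfkm (-0.73) and Pfkp (-0.74), Tpi1 (triosephosphate isomerase, -0.54), Eno3 (-0.80) and Pkm (pyruvate kinase, -0.72). The higher ones were Bpgm (0.49), which makes 2,3-bisphosphoglycerate, and the hexokinase Hk3 (1.06), whose mean was only 0.724 FPKM. In Igf2bp3-/- only Pfkp was lower (-0.88) and Bpgm higher (0.43), beside 14% and 12.5% of all genes; with the replicate number as a block Bpgm was not called (adjusted p = 0.0683). The median of the list was -0.44 in Igf2bp3+/- against -0.10 over all genes, and -0.13 against -0.04 in Igf2bp3-/-. None of these genes was called between genotypes by limma in RNA-seq (18 tested), RNC-seq (17) or the interaction (16), although 2, 2 and 1 of them had an unadjusted p under 0.05, all higher. The genes of this list with the highest means were Ldhal6b (665.8 FPKM), Pgam2 (472 FPKM), which made up 99.5% to 99.8% of phosphoglycerate mutase, and Aldoart2 (363 FPKM).

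Among 9 tested transporters of sugars and lactate, Bsg (basigin, the partner of monocarboxylate transporters) was higher on polysomes in both genotypes (0.76 in Igf2bp3+/- and 0.79 in Igf2bp3-/-), as was its relative Emb (1.28 and 1.30). The glucose transporter Slc2a3 was lower in both (-0.80 and -0.64) and the fructose transporter Slc2a5 in Igf2bp3+/- (-0.69). Bsg, Slc2a5 and Slc2a3 had the highest means of the list, at 337, 323 and 207.5 FPKM. Of 5 genes for fructose-2,6-bisphosphate, the main activator of phosphofructokinase, Pfkfb4 was lower on polysomes in Igf2bp3+/- (-0.42, adjusted p = 0.0404). It stayed past the limit in 1 of 3 other scalings and in 8 of all 15 settings. Pfkfb3, Pfkfb2 and Pfkfb4 averaged 20.3, 10.7 and 10.2 FPKM. In the pyruvate dehydrogenase list, Dlat (-0.54) and the inhibitory kinase Pdk2 (-1.07) were 2 lower genes of 7 tested in Igf2bp3+/-, and with the replicate number as a block Pdk2 was also called in Igf2bp3-/- (adjusted p = 0.0431). These counts, too, stand beside the 43.8% and 26.5% of all genes called between assays. In this list Pdk2, Pdhb and Pdha2 had the highest means, at 103.5, 89.4 and 73.4 FPKM. None of these 3 lists had a gene called between genotypes by limma. At an unadjusted p under 0.05, RNA-seq gave 1 transporter and 2 genes of the pyruvate dehydrogenase list, and RNC-seq gave 1 gene of the latter and 1 of the fructose-2,6-bisphosphate list, all higher in the knockout. Of the 16 genes called between assays in Igf2bp3+/- over the 4 lists, none changed sign under the 3 other scalings and 11 stayed past the limit in each of them. The corresponding numbers in Igf2bp3-/- were 5, none and 4.

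The members of a pair lay near each other across libraries to differing degrees. As a measure of likeness, each gene was centred on its own mean of log2(FPKM + 0.1) over the 12 libraries, and the root mean square difference to every gene with a mean of at least 1 FPKM was taken. All points share library and scaling, so the values are a description. They are not correlations, and genes that vary little lie near each other whether or not they change together. Eno1 was the 266th nearest gene to Eno4 (0.18 log2 units), within the nearest 2.2% of 12264, and Pgk1 was the 932nd nearest to Pgk2 (7.6%). Ldha ranked 1481st for Ldhc (12.1%) and Aldoa 6557th for Aldoart1 (53.5%). Gapdh, itself under this floor, would take place 8352 for Gapdhs (68.1%). Seen from the somatic gene, Eno4 was within the nearest 3.1% for Eno1, Pgk2 within 5.0% for Pgk1, Gapdhs within 9.0% for Gapdh, Ldhc within 12.1% for Ldha and Aldoart1 within 24.5% for Aldoa. The nearest genes of the germline members were Appbp2 for Aldoart1 (0.081), Tmx4 for Gapdhs (0.11), Tcp1 for Pgk2 (0.059), Dvl1 for Eno4 (0.069) and Atp5f1 for Ldhc (0.067). Those of the somatic members were Qsox1 for Aldoa (0.13), Gm47021 for Gapdh (0.34), Ppp2r3c for Pgk1 (0.13), Rab1b for Eno1 (0.063) and Rab8a for Ldha (0.045).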

How the data were processed

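The authors deposited 1 table of FPKM, by gene symbol, for 12 libraries of sorted round spermatids. Per the labels and the study's methods, CASAVA 1.8, Trim Galore 0.6.6 (trimming), HISAT2 (alignment to GRCm38) and StringTie 2.1.7 (quantification) were used. The annotation release and strand use are not stated, and labels and methods name different library kits. Of 28668 symbols, 25 that spreadsheet software had turned into dates (0.0995% of summed FPKM) were left out.

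Members and lists were chosen with earlier results of these data known. Groups follow the labels, with columns named WT being Igf2bp3+/-. Genes with a mean FPKM above 0.1 were tested as log2(FPKM + 0.1), which understates changes of low genes, with limma 3.58.1 in R 4.3.3 (trended moderation, two-sided, Benjamini-Hochberg over all genes, limit 0.05). Genotype was tested within each assay. The assay effect and its interaction with genotype were tested over all 12 libraries. Pair ratios were compared with exact permutation tests (scipy 1.17.1), for the interaction on differences of same-numbered libraries; their p-values were not adjusted. Near-identical copies under other symbols were found with BLAST 2.17.0 in GENCODE M21, and coding sequences were aligned with Biopython 1.88. Scripts were tested on simulated data.

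The genes named were the 10 members, list genes past the limit in any contrast, the 3 with the highest mean in each list, copies above 1 FPKM and the nearest gene of each member. Gm5855 was named besides, after its value was seen. Without counts, depth and counting error are unknown. Alternatives were pseudocount 1, other filters and scalings, library weights, a replicate block, and leaving out each replicate.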

Additional observations from a re-analysis of the deposited data

How the results depend on the processing

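No member was called between genotypes in RNA-seq, in RNC-seq or by the interaction under any alternative. Depth and counting error are unknown, Gapdh and Pgk1 rest on low FPKM, a fold on log2(FPKM + 0.1) understates their change, and 3 libraries against 3 cannot reach an exact p below 0.1. Between assays the count of members called was decided by scaling and by single replicates. In Igf2bp3+/- it was 0 as reported, 2 with a mean FPKM above 1, 1 with each library centred on its median, 3 with quantile normalization, 5 with rescaling without the 10 highest genes, 2 with library weights and 0 to 1 on leaving out a replicate (1 without Igf2bp3+/- replicate 2, where Ldhc was called, and 1 without Igf2bp3-/- replicate 2 or replicate 3, where Aldoa was). In Igf2bp3-/- it was 1 as reported, 0 without the filter, 2 with quantile normalization, 2 with rescaling, 0 with library weights and 0 to 1 on leaving out a replicate.

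The replicate number was tried as a block. Deviations from the group means of an RNA-seq library and the RNC-seq library of its number correlated at 0.205, -0.104 and 0.198 in Igf2bp3+/- and at -0.051, 0.165 and 0.126 in Igf2bp3-/- over 12265 genes. The methods describe a shared extract for both assays, but as not every pair correlated and the labels do not match numbers between assays, the block was kept as an alternative. Between genotypes the largest of these correlations was 0.241, for replicate 2 in RNC-seq. With the replicate block the members called between assays numbered 1 in Igf2bp3+/- (Aldoa, adjusted p = 0.0266) and 0 in Igf2bp3-/-, and the Pgk2/Pgk1 log2 ratio between assays, -0.349, had an exact p of 0.0625. It changed no other call of a member or pair. Over all genes it took the calls for genotype from 52 to 4 in RNA-seq, from 22 to 31 in RNC-seq and from 1 to 0 in the interaction. All 7 marker calls in RNA-seq were lost, Cd74 was gained in RNC-seq, and between assays Pfkfb4 in Igf2bp3+/- (adjusted p = 0.0598) and Bpgm in Igf2bp3-/- were lost and Pdk2 in Igf2bp3-/- was gained.

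Of 715 recomputed member values 57 changed sign, 13 of them with quantile normalization and 29 on leaving out a replicate; all of these had main values that did not pass the test, and the cause was not tested. For genotype in RNA-seq, quantile normalization gave -0.051 for Gapdhs, -0.006 for Eno4, -0.002 for Eno1 and -0.009 for Ldha, rescaling gave -0.021 for Aldoart1, -0.077 for Gapdhs and -0.031 for Eno4, and library weights gave -0.071 for Gapdhs. For genotype in RNC-seq, Aldoart1 was at -0.107 when centred, -0.135 with quantile normalization, -0.129 rescaled and -0.068 with weights, and quantile normalization gave 0.040 for Ldhc and -0.009 for Ldha. In the interaction, centring gave -0.043 for Eno4 and -0.116 for Ldha, and Ldha was at -0.003 with quantile normalization and -0.051 with weights. Between assays in Igf2bp3+/-, quantile normalization gave -0.203 for Ldhc and -0.273 for Ldha, and rescaling -0.047 for Pgk1 and -0.129 for Ldha. In Igf2bp3-/-, quantile normalization gave -0.029 for Gapdhs, -0.257 for Ldhc and -0.275 for Ldha, and rescaling -0.179, -0.022 and -0.126.

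On leaving out each replicate in turn, the ranges that crossed 0 were, for genotype in RNA-seq, -0.081 to 0.133 for Gapdhs and -0.201 to 0.158 for Gapdh, and in RNC-seq -0.151 to 0.129 for Aldoart1, -0.270 to 0.080 for Pgk2, -0.185 to 0.075 for Ldhc and -0.292 to 0.039 for Pgk1. In the interaction they were -0.259 to 0.066 for Aldoart1, -0.117 to 0.285 for Eno4 and -0.068 to 0.071 for Ldha. Between assays in Igf2bp3+/- they were -0.382 to 0.035 for Pgk2, -0.892 to 0.076 for Gapdh, -0.107 to 0.341 for Pgk1 and -0.002 to 0.137 for Ldha, and in Igf2bp3-/- -0.260 to 0.332 for Gapdhs, -0.375 to 0.027 for Eno4, -0.458 to 0.289 for Aldoa, -0.254 to 0.052 for Pgk1, -0.236 to 0.139 for Eno1 and -0.003 to 0.116 for Ldha.

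Of 145 recomputed pair values 19 changed sign, 16 of them on leaving out a replicate. With pseudocount 1 the genotype difference of Gapdhs/Gapdh was 0.175 in RNC-seq and 0.098 in the interaction, and that of Pgk2/Pgk1 was -0.046 in the interaction. Leave-one-out ranges that crossed 0 were, for genotype in RNA-seq, -0.042 to 0.282 (Gapdhs/Gapdh), -0.129 to 0.099 (Pgk2/Pgk1), -0.193 to 0.013 (Eno4/Eno1) and -0.017 to 0.113 (Ldhc/Ldha). In RNC-seq they were -0.732 to 0.321 (Gapdhs/Gapdh), -0.022 to 0.070 (Pgk2/Pgk1) and -0.308 to 0.009 (Ldhc/Ldha), and in the interaction -1.014 to 0.232 (Gapdhs/Gapdh), -0.112 to 0.199 (Pgk2/Pgk1) and -0.258 to 0.045 (Eno4/Eno1). Between assays Eno4/Eno1 ran from -0.101 to 0.042, Ldhc/Ldha from 0.169 to 0.325 and Pgk2/Pgk1 from -0.421 to -0.294.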

Other observations

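In RNC-seq, replicate 2 deviated from its group in the same direction in both genotypes for several isozymes. In Igf2bp3+/- and Igf2bp3-/- alike it was the lowest of its 3 libraries for Ldhc (3389 and 3606 FPKM), Pgk2 (242 and 299 FPKM) and Ldhal6b (356 and 778 FPKM), and the highest for Aldoa (113 and 292 FPKM), Eno1 (188 and 286 FPKM) and the hexokinase Hk1 (233 and 437 FPKM). Ldha did not follow this pattern, being lowest in the one (567 FPKM) and highest in the other (784 FPKM). Deviations from the group means of these 2 libraries correlated at 0.241 across 12265 genes, which are not independent replicates. Igf2bp3-/- replicate 2 held the highest values of the 12 libraries for Aldoa, Eno1, Ldha, Gapdh (0.974 FPKM) and Aldoart2 (587 FPKM, against 361 and 342 in its group). In that library the 8 elongating spermatid markers summed to 11940 FPKM, against 22630 and 18160 in the other knockout RNC-seq libraries, and the Leydig markers to 61.8 FPKM, against 102 and 51.4. In Igf2bp3+/- replicate 2 the elongating spermatid markers summed to 15220 FPKM, against 14270 and 12980. The part of these differences in the isozyme values was not tested.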
